A study of Mus musculus with 6 samples.

Results

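Voltage-gated sodium channels and their fibroblast growth factor (FGF) partners were followed in RNA sequencing of mouse cerebellum at postnatal day 18. The 9 genes were taken by their symbols from the deposited tables of 24411 genes: the pore-forming alpha subunits Scn1a, Scn3a and Scn8a, the accessory beta subunits Scn2b, Scn3b and Scn4b, and the FGF homologous factors Fgf12, Fgf13 and Fgf14. All 9 were present, and all 9 passed the filter on low counts. Libraries came from 3 wild-type (WT) replicates and 3 replicates with a knockout of the remote enhancer of Atoh7 (KO). Atoh7 is a proneural transcription factor gene best known for the birth of retinal ganglion cells. The labels call the replicates independent without saying whether each was 1 animal, and they name no strain and no allele of the knockout, so p-values measure the spread between these libraries. The sample entries name retina as the tissue, while the series design names cerebellum.

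A voltage-gated sodium channel carries the rising phase of the action potential. Its alpha subunit forms the pore, and beta subunits, which are single-pass membrane proteins with an immunoglobulin domain, change its gating and its place in the membrane. FGF homologous factors resemble growth factors but stay in the cell, bind the tail of the alpha subunit and shift its inactivation. In the cerebellum these channels sit at the axon initial segment and at nodes of Ranvier, and those of Purkinje cells are known for a resurgent current that supports rapid firing.

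Reads assigned to genes on the counted strand numbered 16340132 to 34438262 per library. Rn45s, a precursor of ribosomal RNA, took 63.2% of them in WT replicate 3, leaving 6015125, and 1.28% to 3.04% elsewhere. Atoh7 itself had 7 to 72 reads in WT and 45 to 92 in KO, so the level of the gene whose enhancer was targeted does not separate the groups. Reads outside genes made up 32.0% to 38.5% of WT and 17.1% to 17.6% of KO libraries. WT replicate 1 had 31134 reads of Xist, which coats the inactive X chromosome, and 0 reads on 4 Y-linked genes, while the other libraries had at most 10 reads of Xist. Markers of Purkinje cells summed to 3841 to 5526 CPM (counts scaled to a library size of 1000000) and those of granule neurons to 1376 to 2258 CPM. The 9 retinal markers summed to 9.30 to 14.2 CPM, with Crx, a photoreceptor transcription factor, at 0 in every library.

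Promoter sequences are shown for 4 of the genes, since Scn2b and Scn4b lie next to each other and both changed, and since Fgf13 and Fgf14 had opposite signs. Each runs 5′ to 3′ on the gene's strand from 250 bases before a RefSeq start to 50 from it (GRCm38.p6, the assembly of which mm10 is the common name). In the first pair, capitals mark CG dinucleotides.
Scn2b promoter, chr9:45117626-45117925, plus strand: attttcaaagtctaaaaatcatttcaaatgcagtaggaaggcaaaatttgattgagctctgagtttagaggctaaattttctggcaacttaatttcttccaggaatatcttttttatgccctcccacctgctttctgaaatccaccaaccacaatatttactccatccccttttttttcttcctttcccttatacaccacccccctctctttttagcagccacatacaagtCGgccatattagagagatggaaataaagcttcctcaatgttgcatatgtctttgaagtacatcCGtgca
Scn4b promoter, chr9:45138374-45138673, plus strand: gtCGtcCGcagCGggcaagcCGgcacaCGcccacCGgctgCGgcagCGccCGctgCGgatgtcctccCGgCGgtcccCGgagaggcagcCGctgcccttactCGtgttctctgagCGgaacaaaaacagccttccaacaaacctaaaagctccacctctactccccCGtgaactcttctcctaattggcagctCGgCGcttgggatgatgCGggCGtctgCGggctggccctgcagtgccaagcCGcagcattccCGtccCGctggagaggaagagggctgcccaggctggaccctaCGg
In the second pair, capitals mark GC boxes (GGGCGG or CCGCCC) and the E-box CAGCTG, a palindrome read by basic helix-loop-helix factors.
Fgf13 promoter, chrX:59567299-59567598, minus strand: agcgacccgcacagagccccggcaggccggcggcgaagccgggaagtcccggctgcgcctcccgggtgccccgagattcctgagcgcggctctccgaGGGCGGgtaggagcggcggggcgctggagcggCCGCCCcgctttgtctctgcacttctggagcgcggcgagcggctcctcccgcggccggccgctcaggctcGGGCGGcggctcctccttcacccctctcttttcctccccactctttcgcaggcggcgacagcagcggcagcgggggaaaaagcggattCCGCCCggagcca
Fgf14 promoter, chr14:124192497-124192796, minus strand: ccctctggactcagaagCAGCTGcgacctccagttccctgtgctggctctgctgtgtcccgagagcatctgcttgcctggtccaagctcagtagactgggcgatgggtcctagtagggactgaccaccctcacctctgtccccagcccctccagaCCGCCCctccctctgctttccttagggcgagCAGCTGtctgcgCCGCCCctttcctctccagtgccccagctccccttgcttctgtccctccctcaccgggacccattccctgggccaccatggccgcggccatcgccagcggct

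The neighbouring beta subunit genes had unlike promoters. The Scn2b window held 2 CG dinucleotides and 38.3% G and C, while the Scn4b window held 26 and 66.3%. The median over 32851 promoter windows of this length was 7 CG dinucleotides and 52.7% G and C. The RefSeq table matched 7 of the 9 genes, with 14 windows, and held none for Scn3a and Scn3b. GC boxes, sought on both strands with overlaps counted, were found in windows of Fgf12, Fgf13 and Fgf14 and in none of Scn1a, Scn8a, Scn2b or Scn4b. The Fgf13 window shown held 4 of them, and the Fgf14 window held 2 beside 2 E-boxes. The Fgf14 window lies at a start inside the gene, far from the gene's annotated 5′ end at 124677127. The Fgf13 window shown lies near the annotated 5′ end of its gene at 59568071. The 4 Fgf13 windows differed: a second also held 4 GC boxes, a further one held 1 E-box and no GC box, and the last held neither. Of all windows, 35.7% held a GC box and 16.3% the E-box CAGCTG. The 7 letters CAGCACC, found in the binding element of the repressor REST, were in none of the 14 windows and in 7.14% of all windows. These are matches of letters only, and binding was not measured here.

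Higher in KO were 5 of the 9 genes, and none was lower, where 6.43% of all 15519 tested genes rose, 10.2% fell and 16.7% changed in either direction. The 5 were Scn1a, Scn8a, Scn2b, Scn4b and Fgf13, while Scn3a, Scn3b, Fgf12 and Fgf14 did not pass the test. KO libraries lay above all WT libraries in 6 of the 9 genes, as they did in 18.9% of tested genes, and below them in 0 of the 9 against 20.5% of tested genes (39.4% for both directions). The median log2 fold change was 0.27 over the 9 genes and −0.01 over all tested genes. A gene passed at an adjusted p under 0.05 in edgeR (quasi-likelihood F test, Benjamini-Hochberg over all tested genes). In bulk tissue, a change in the number of cells of a type and a change in RNA per cell cannot be told apart. A further fit carried a term for read assignment, the reads outside genes per gene read other than Rn45s (log2), and there 0 of the 9 genes passed in edgeR, while 3 (Scn8a, Scn4b and Fgf14, the last with KO lower) had an unadjusted p under 0.05. Scn4b alone passed when WT replicate 2 or KO replicate 2 was left out, Scn1a, Scn4b and Fgf13 when it was KO replicate 1, and Scn8a and Scn4b when it was KO replicate 3.

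**Figure D1:**
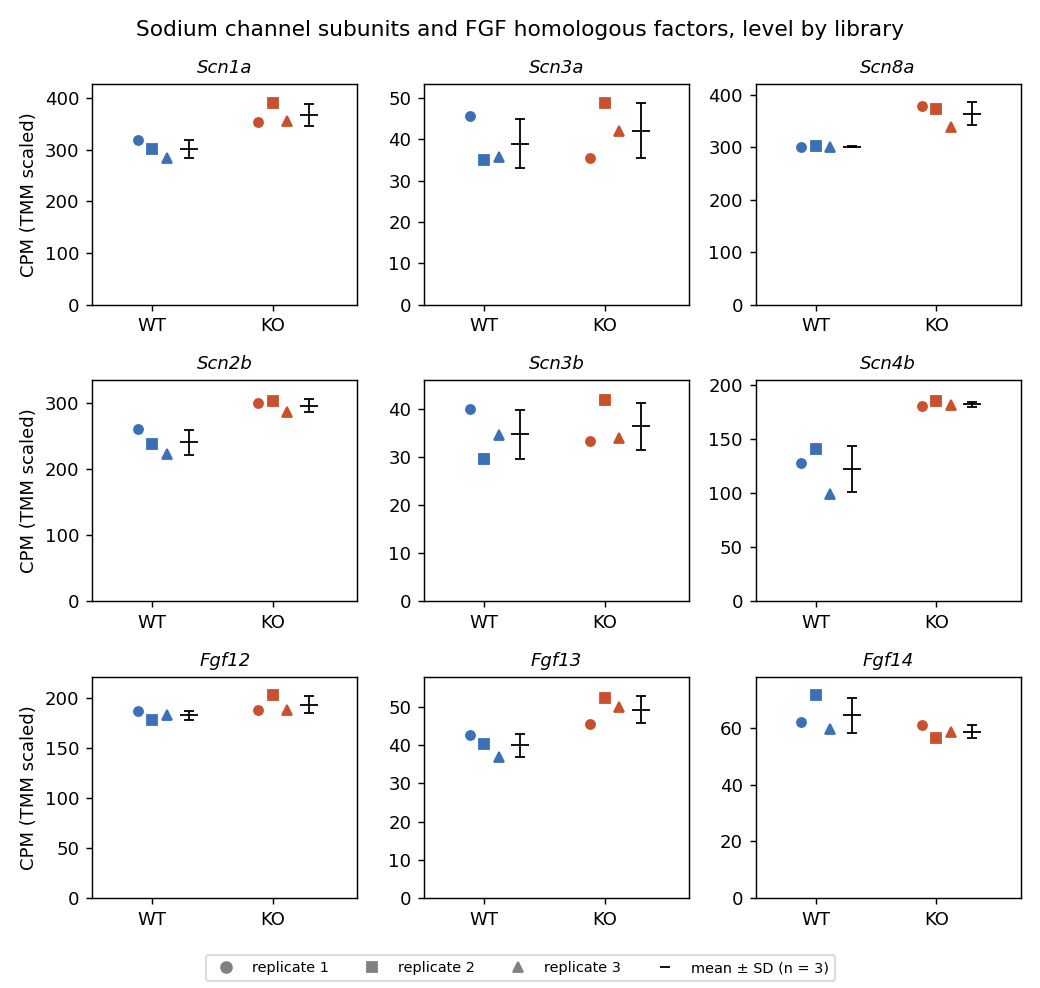
Level of each gene in CPM on TMM-scaled library sizes (vertical axes, from 0) in 3 WT (blue) and 3 KO (orange) libraries, with the mean and SD beside the points. The KO points lie above all WT points for Scn1a, Scn8a, Scn2b, Scn4b, Fgf12 and Fgf13 and overlap them for Scn3a, Scn3b and Fgf14.

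Among alpha subunits, Scn1a and Scn8a rose by similar amounts. Scn1a, which encodes Nav1.1 (chromosome 2, 66270778 to 66440840, minus strand), was at 318, 301 and 283 CPM in WT replicates 1 to 3 and at 352, 390.2 and 356 CPM in KO replicates 1 to 3. Every KO library was above every WT library, and the group means were 301 ± 17.3 and 366 ± 21.0 CPM (SD, n = 3 each). The difference was 1.22 fold (log2 0.28, SE 0.07; edgeR adjusted p = 0.0202). Scn1a lost its call without WT replicate 2 (adjusted p = 0.0678 in edgeR), KO replicate 2 (0.0897) or KO replicate 3 (0.0658).

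Scn8a encodes Nav1.6, the main alpha subunit of mature initial segments and nodes and the chief carrier of resurgent current in Purkinje cells. The gene (chromosome 15, 100869858 to 101045938, plus strand) was at 301, 303 and 300.04 CPM in WT and at 379.5, 374 and 339.5 CPM in KO. The WT libraries were nearly equal, and the lowest KO library was above them. The means were 301 ± 1.28 and 364 ± 21.6 CPM (SD, n = 3 each), 1.21 fold apart (log2 0.27, SE 0.06; edgeR adjusted p = 0.0158). Its edgeR adjusted p was 0.0569 when WT replicate 2 was left out, 0.0656 for KO replicate 1 and 0.0710 for KO replicate 2.

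Scn3a, which encodes Nav1.3, an alpha subunit best known from embryonic and early postnatal brain, did not pass. It was at 45.7, 35.1 and 35.8 CPM in WT and at 35.4, 48.7 and 41.99 CPM in KO. The groups overlapped, with the highest WT library above 2 of the KO libraries. Its log2 fold change was 0.10 with a 95% interval of −0.21 to 0.41 (adjusted p = 0.656 in edgeR), and the interval holds both 0 and the value of Scn1a. Without KO replicate 2 the value was −0.02.

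The fourth alpha subunit of the brain, Scn2a1 (Nav1.2), is not among the 9 genes and was read as part of the wider family. It was at 304, 316 and 303 CPM in WT and at 296, 267 and 255 CPM in KO, so the groups did not overlap, with KO lower. Its log2 fold change was −0.17 (95% interval −0.32 to −0.02), and it did not pass (adjusted p = 0.106 in edgeR, unadjusted 0.0279). After removal of a trend in GC content and exon length, Scn2a1 was at −0.05 (unadjusted p = 0.455 in edgeR), and the shares that follow carry no such correction. Per kb of exon, Scn1a made up 36.7% ± 1.12 of the 4 alpha subunits in WT and 40.7% ± 1.77 in KO, Scn8a 26.1% ± 0.677 and 28.6% ± 0.745, and Scn2a1 32.9% ± 1.03 and 26.5% ± 1.71 (SD, n = 3 each). For each of these 3 shares the groups did not overlap. The share of Scn3a was 4.25% ± 0.563 and 4.18% ± 0.626, and its groups did. The 4 summed to 73.3 ± 2.03 CPM per kb in WT and 80.8 ± 3.49 in KO (SD, n = 3 each).

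Among beta subunits, the neighbours Scn2b and Scn4b both rose. Scn4b, whose protein has a short tail known to act as an open-channel blocker in resurgent current, lies on chromosome 9 at 45138395 to 45154152 (plus strand). It was at 128, 141 and 99.0 CPM in WT and at 181, 185 and 182 CPM in KO. The KO libraries lay close together and above all WT libraries, of which replicate 3 was the lowest. The means were 123 ± 21.5 and 183 ± 2.28 CPM (SD, n = 3 each), 1.47 fold apart (log2 0.56, SE 0.11; edgeR adjusted p = 0.00790). Scn4b passed when any 1 library was left out, with log2 fold changes of 0.44 to 0.67. With the read assignment ratio in the fit it was at 0.20 (adjusted p = 0.156 in edgeR).

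Scn2b encodes a beta subunit that is linked to the alpha subunit by a disulfide bond. The gene (chromosome 9, 45117782 to 45130070, plus strand) ends 8.325 kb before Scn4b starts. It was at 261, 239 and 223 CPM in WT and at 301, 303 and 286 CPM in KO, with no overlap. Its means were 241 ± 19.4 and 297 ± 9.17 CPM (SD, n = 3 each), 1.23 fold apart (log2 0.30, SE 0.07; edgeR adjusted p = 0.0175). Without WT replicate 2 or KO replicates 1, 2 or 3, its adjusted p in edgeR was 0.0669, 0.0684, 0.0772 and 0.0574. The nearest tested protein-coding genes on either side of the pair, Amica1 (log2 0.02), which encodes a junctional adhesion molecule, and Il10ra (−0.20), an interleukin receptor chain, did not pass (unadjusted p = 0.999 and 0.110 in edgeR).

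Scn3b, a beta subunit that binds without a disulfide bond and is best known from the immature brain, lies on the same chromosome at 40269217 to 40291618 (plus strand) and did not pass. Its levels were 40.0, 29.7 and 34.7 CPM in WT and 33.4, 42.02 and 34.0 CPM in KO. The groups overlapped, with a log2 fold change of 0.07 (95% interval −0.21 to 0.35; adjusted p = 0.751 in edgeR). Its sign turned without WT replicate 2 (−0.05) or KO replicate 2 (−0.05).

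**Figure D2:**
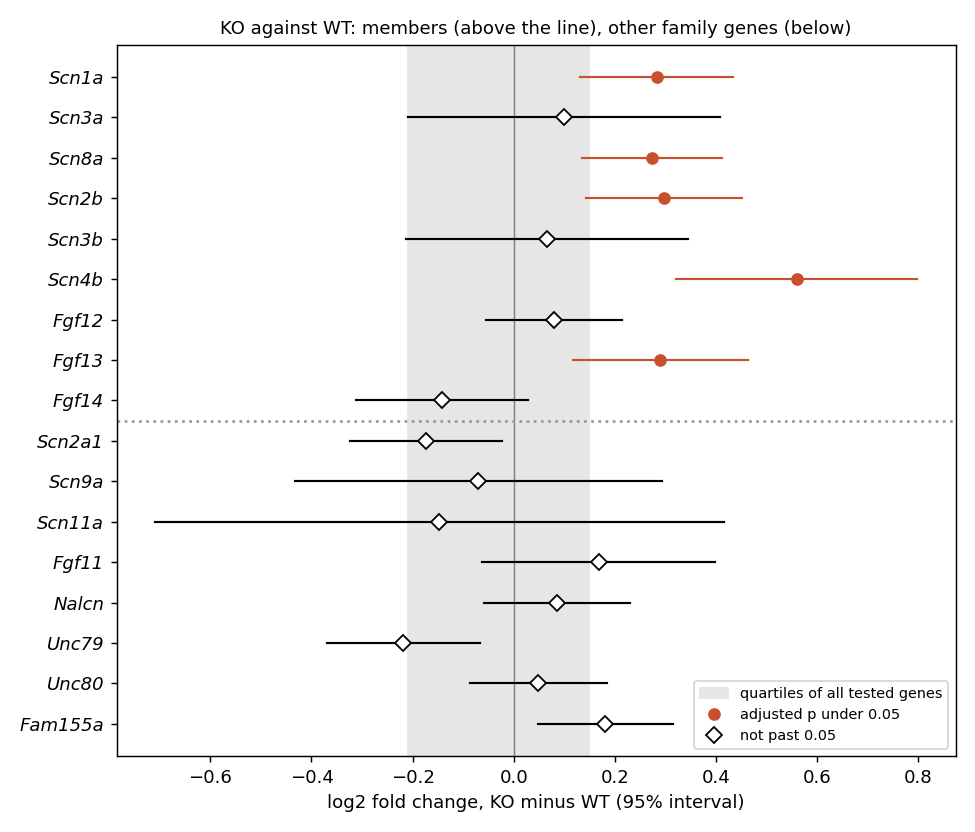
Log2 fold changes of KO against WT (horizontal axis) with 95% intervals for the 9 genes (above the dotted line) and 8 other genes of the wider sodium channel family that the text names (below it); filled orange points passed the test. The grey band runs from the lower to the upper quartile of all tested genes, −0.21 to 0.15, and the 5 genes that rose are among the points to the right of it.

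Among the FGF homologous factors, Fgf13 passed the test, while Fgf11, Fgf12 and Fgf14 did not. The 95% intervals of Fgf13 (0.12 to 0.46) and Fgf12 (−0.05 to 0.21) overlapped. Fgf13, the factor whose gene lies on the X chromosome (59062145 to 59568071, minus strand) and which also binds microtubules, was at 42.7, 40.3 and 36.9 CPM in WT and at 45.5, 52.4 and 50.02 CPM in KO. Its groups did not overlap, with means of 40.0 ± 2.91 and 49.3 ± 3.50 CPM (SD, n = 3 each). The difference was 1.22 fold (log2 0.29, SE 0.08; edgeR adjusted p = 0.0312). WT replicate 1, the library with Xist reads, was the highest WT library, and without it the log2 fold change was 0.34 (adjusted p = 0.0315 in edgeR). The call was lost without WT replicate 2 (adjusted p = 0.0906 in edgeR), KO replicate 2 (0.125) or KO replicate 3 (0.115).

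Fgf12, the factor with the most reads of the 3 (chromosome 16, 28160098 to 28753068, minus strand), was at 187, 178 and 183 CPM in WT and at 188, 203 and 188 CPM in KO. The KO libraries were above the WT libraries by a small margin, and the gene did not pass (log2 0.08, 95% interval −0.05 to 0.21; adjusted p = 0.397 in edgeR). Fgf14 (chromosome 14, 123977907 to 124677127, minus strand), in which mutations cause a spinocerebellar ataxia in humans, was at 62.2, 71.6 and 59.8 CPM in WT and at 61.02, 56.7 and 58.8 CPM in KO. Its log2 fold change of −0.14 (95% interval −0.31 to 0.03) was the one negative value among the 9 genes and did not pass (adjusted p = 0.232 in edgeR). The size moved with the fit, to −0.06 without WT replicate 2, to −0.05 with the GC content and length trend taken out and to −0.27 with the read assignment ratio. Fgf11, the remaining factor, was at 0.17 (adjusted p = 0.292 in edgeR). Per kb of exon, Fgf14 made up 22.3% ± 1.78 of the 4 factors in WT and 19.2% ± 0.676 in KO, with no overlap, and Fgf13 14.4% ± 1.14 and 16.7% ± 1.26, with overlap (SD, n = 3 each).

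Ratios of counts within a library, which do not depend on how libraries are scaled, were compared for 8 pairs of the genes. The smallest p of a two-sided exact permutation test is 0.1 at 3 libraries a group, and after adjustment over the 8 ratios the smallest p was 0.160. The log2 ratio of Fgf14 to Fgf13 was 0.54, 0.83 and 0.70 in WT and 0.42, 0.11 and 0.23 in KO. The groups did not overlap, and the difference was −0.43 (exact permutation p = 0.1, adjusted 0.160). The log2 ratio of Fgf12 to Fgf13 was 2.13, 2.14 and 2.31 in WT and 2.05, 1.96 and 1.91 in KO, a difference of −0.22. That of Fgf14 to Fgf12 differed by −0.21, and neither pair overlapped (exact permutation p = 0.1 each). The second difference was −0.11 without WT replicate 2, the highest WT library for this ratio. Every KO library thus had fewer Fgf14 reads for each Fgf13 read than any WT library. For Fgf14 to Fgf12 the groups nearly met, with log2 ratios of −1.617 in WT replicate 3 and −1.623 in KO replicate 1. WT replicate 3 had 386 Fgf14 reads.

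Scn4b counts relative to those of Scn2b and Scn8a were spread out among WT libraries and closer together in KO. The log2 ratio of Scn4b to Scn2b was −1.03, −0.76 and −1.17 in WT and −0.73, −0.71 and −0.65 in KO, a difference of 0.29 with no overlap (exact permutation p = 0.1). WT replicate 2 lay 0.03 below the lowest KO library. The ratio of Scn4b to Scn8a differed by 0.32, also with no overlap (exact permutation p = 0.1), and by 0.17 without WT replicate 3. The log2 ratio of Scn4b to Scn3b was 1.68, 2.25 and 1.51 in WT and 2.44, 2.14 and 2.42 in KO. It differed by 0.52 with overlap (exact permutation p = 0.2). Scn8a and Scn1a kept nearly the same counts relative to each other, with a log2 ratio of 0.00 ± 0.08 in WT and −0.01 ± 0.10 in KO (SD, n = 3 each), and Scn1a to Scn3a differed by 0.17 with overlap (exact permutation p = 0.3).

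**Figure D3:**
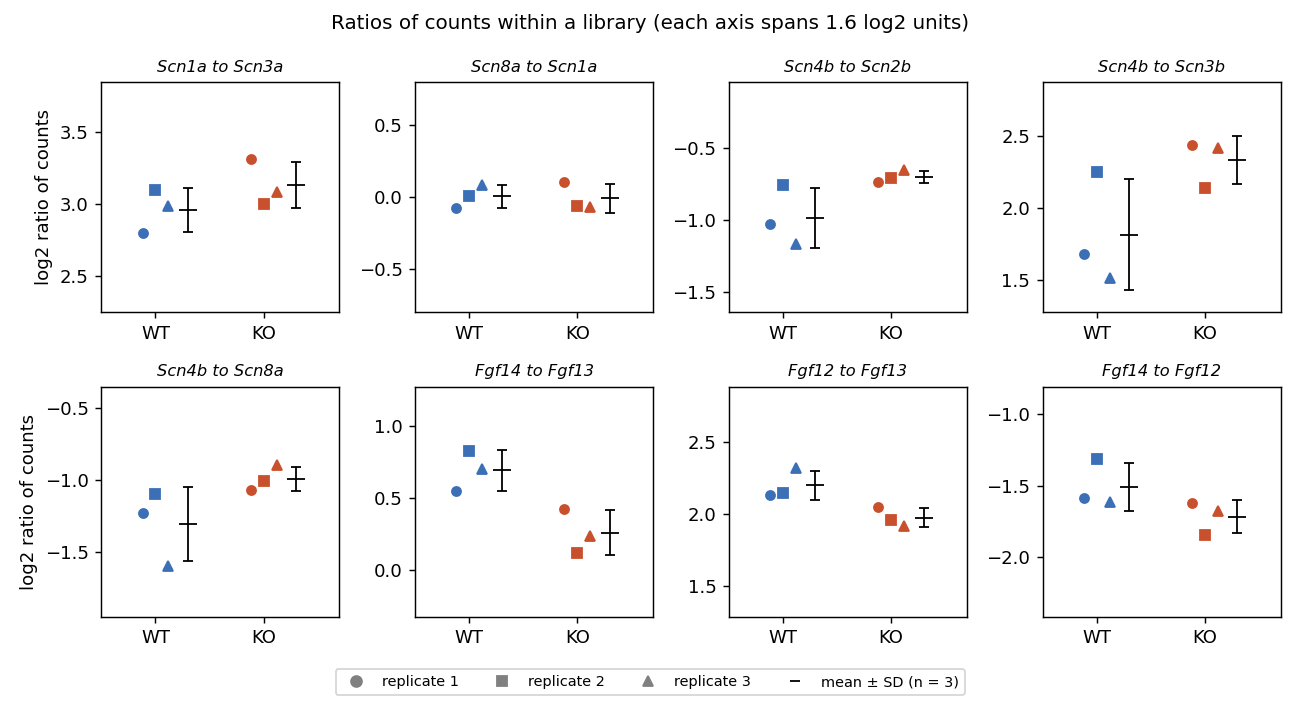
Log2 ratio of the counts of 2 genes within each library (vertical axes, all spanning the same range) for the 8 pairs, with the mean and SD of 3 WT (blue) and 3 KO (orange) libraries. The Fgf14 to Fgf13 panel shows KO at 0.11 to 0.42 below WT at 0.54 to 0.83, and the Scn8a to Scn1a panel shows both groups around 0.

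Levels per kb of annotated exon put the genes on 1 scale. Scn2b was the most abundant of the 9 in both genotypes, at 51.7 ± 4.18 CPM per kb in WT and 63.7 ± 1.97 in KO (SD, n = 3 each). In WT it was followed by Fgf12 (29.5 ± 0.733), Scn1a (27.0 ± 1.55), Scn4b (24.6 ± 4.32) and Scn8a (19.1 ± 0.0811). The ranges of Scn1a (25.4 to 28.5) and Scn4b (19.9 to 28.3) overlapped, so their order in WT is not settled by these libraries. Fgf14 (15.4 ± 1.48), Fgf13 (9.94 ± 0.723), Scn3b (6.37 ± 0.945) and Scn3a (3.12 ± 0.476) came last, with ranges that did not overlap one another. In KO, Scn4b was in rank 2 at 36.7 ± 0.457 CPM per kb (SD, n = 3), and the ranges of Scn1a (31.6 to 35.01) and Fgf12 (30.3 to 32.8) in ranks 3 and 4 overlapped. With the longest transcript as the length, Scn2b stayed in rank 1 and Scn3a in rank 9, while Scn4b was in rank 5 in WT and 4 in KO.

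**Figure D4:**
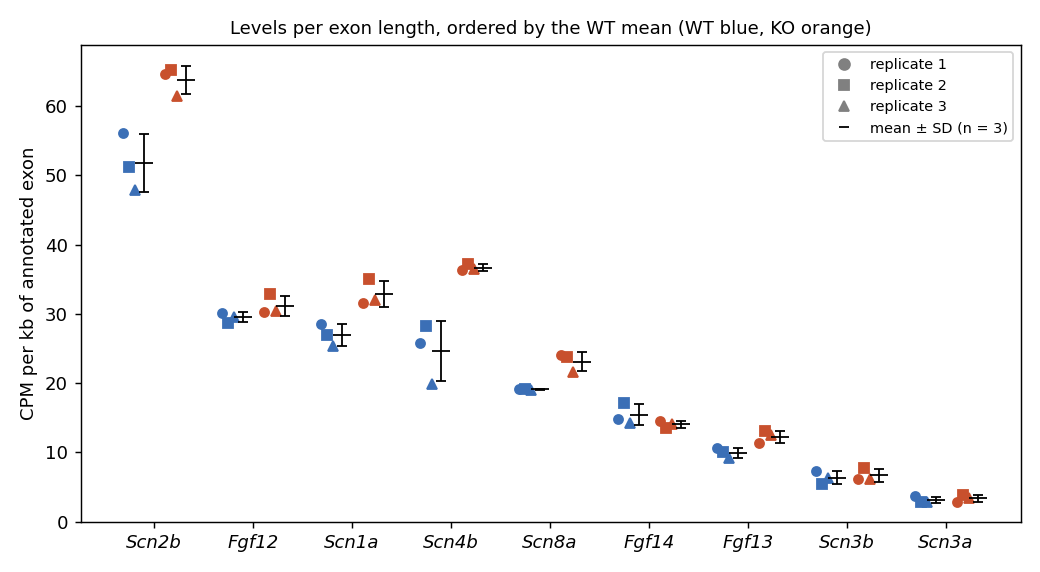
Level per kb of annotated exon (vertical axis, CPM per kb) of the 9 genes, ordered from the highest to the lowest WT mean, in 3 WT (blue) and 3 KO (orange) libraries with the mean and SD. Scn2b stands highest at 47.8 to 65.1, and Scn3a lowest at 2.82 to 3.91.

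The wider sodium channel family had 11 tested genes, of which 1 rose, 0 fell and 10 did not pass (median log2 0.05). That is 9.09% passing, against 16.7% of all tested genes in either direction and 6.43% higher. The leak channel Nalcn (0.09) and its partner Unc80 (0.05) did not pass, and nor did Unc79 (−0.22, adjusted p = 0.0527 in edgeR) and Fam155a (0.18, adjusted p = 0.0634), further parts of the same channel complex. Without WT replicate 3, Fam155a also counted as higher and Unc79 as lower. Scn11a, a channel of peripheral nerve, averaged 1.55 CPM in KO, and Scn4a and Scn10a did not reach the filter.

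Of 22 listed genes of the axon initial segment and node, 4 rose, 0 fell and 18 did not pass (median log2 0.07). The share passing, 18.2%, was near the 16.7% of all tested genes in either direction (6.43% higher). The products of these 4 are known from the paranode and the stretch beside it. Kcnab2, a beta subunit of Kv1 potassium channels, rose from 234 ± 27.5 to 309 ± 8.54 CPM (log2 0.39), Kcna1 and Kcna2, Kv1 alpha subunits, by 0.23 each, and Cntnap1, an axonal paranode protein, by 0.25 (SD, n = 3 each; adjusted p = 0.0106, 0.0246, 0.0262 and 0.0394 in edgeR). Ank3, the ankyrin that holds sodium channels at the initial segment, was at 0.07 and Sptbn4, its spectrin partner, at −0.18, and neither passed (adjusted p = 0.490 and 0.203 in edgeR). Kcnab2 alone passed without WT replicate 2 or KO replicate 1, none passed without KO replicate 2 or 3 (edgeR; 12 of the 22 had an unadjusted p under 0.05 with all libraries), and 6 rose and 2 fell without WT replicate 3. After removal of a trend in GC content and exon length, 9 rose.

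Of 23 genes whose products bind or regulate these channels, 1 rose and 22 did not pass (median 0.07). This share of 4.35% was below the 16.7% of all tested genes in either direction (6.43% higher). Calm3, a calmodulin gene, rose from 976 ± 34.7 to 1161 ± 26.9 CPM (log2 0.25, SE 0.07; SD, n = 3 each; adjusted p = 0.0333 in edgeR). Rest, the repressor of many neuronal genes, was at 11.2 ± 0.946 CPM in KO, with a log2 fold change of −0.20 (adjusted p = 0.192 in edgeR). Calm3 lost its call when any 1 library other than WT replicate 3 was left out, and without that library 4 genes of the list rose and 1 fell. Removal of the GC content and length trend also ended the call of Calm3 (log2 0.18, adjusted p = 0.0795 in edgeR). So did a replicate block (adjusted p = 0.110 in edgeR) and the read assignment ratio (0.232). The genes of this list that rose with the trend removed were Mapk8ip2 and Nova1.

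Of 13 genes of sodium handling, 4 rose, 0 fell and 9 did not pass (median 0.06). Those that passed made up 30.8%, beside 16.7% of all tested genes in either direction (6.43% higher). Atp1b1, a beta subunit of the sodium pump, rose from 1318 ± 24.3 to 1607 ± 59.8 CPM (log2 0.29, SE 0.07; adjusted p = 0.0255 in edgeR). Hcn2, a pacemaker channel subunit that passes sodium and potassium, rose from 150.2 ± 16.9 to 200.03 ± 5.16 CPM (log2 0.41, SE 0.08; SD, n = 3 each; adjusted p = 0.00860 in edgeR). Hcn2 alone passed without WT replicate 2 and without KO replicate 1 or 2, 2 genes passed without KO replicate 3, and 0 genes of the list rose with the read assignment ratio.

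Some markers of cell types also passed the test, where 6.43% of all tested genes rose and 10.2% fell. Several lists lay near the 16.7% of all tested genes that changed in either direction. Of 10 Purkinje cell genes 4 rose and 0 fell, with summed levels of 3841 to 4759 CPM in WT and 4397 to 5526 CPM in KO. Of 8 interneuron genes 2 rose and 1 fell (463 to 511 and 512 to 538 CPM), and of 7 genes of cerebellar nuclei and brainstem neurons 2 rose and 0 fell (214 to 276 and 274 to 323 CPM). Of 10 granule neuron genes 0 rose and 2 fell (1786 to 2258 and 1376 to 1936 CPM). Of 7 tested genes of granule cell progenitors 0 rose and 2 fell, Top2a (log2 −0.92) and Dcx (log2 −0.45). The others did not pass, with Mki67 at −0.58, Gli1 at −0.31, Ccnd2 at −0.06, Barhl1 at 0.03 and Sfrp1 at 0.26. Atoh1, with 0 to 7 reads per library, was not tested. The sums of the whole list did not overlap (159 to 197 CPM in WT, 139 to 147 CPM in KO). Among 5 genes of oligodendrocyte precursors and 7 of Bergmann glia and astrocytes 1 each fell, and among 5 of microglia 1 rose. Summed oligodendrocyte genes were at 23501 to 27334 CPM in WT and 30117 to 32054 CPM in KO, and 0 of the 8 passed in edgeR, while 4 had an unadjusted p under 0.05. Of 6 vessel genes 5 fell (209 to 234 and 146 to 151 CPM). The part of these cell types in the results was not tested.

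Of the closest neighbours on the genome that are not members, Slc4a8, Ttc21b and Slc38a11 passed the test and the rest did not. Over all tested genes, 16.7% passed in either direction. Slc4a8, a sodium-coupled bicarbonate transporter gene before Scn8a, rose from 125 ± 7.94 to 149 ± 7.08 CPM (log2 0.25; adjusted p = 0.0326 in edgeR). Next to Scn1a, Ttc21b, a gene of transport in cilia, fell (20.9 ± 0.899 CPM in WT, 15.2 ± 0.744 in KO, log2 −0.46; adjusted p = 0.00456 in edgeR). Slc38a11, 93.1 kb from Scn3a and low in reads, fell from 1.53 ± 0.476 to 0.633 ± 0.0782 CPM (log2 −1.38, adjusted p = 0.00589 in edgeR; SD, n = 3 each). Slc4a8 lost its call without WT replicate 2 (adjusted p = 0.0884 in edgeR) and without KO replicates 1 (0.0918), 2 (0.133) and 3 (0.0752). Leaving out single libraries ended neither of the other calls.

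The genes whose profile over the 6 libraries was nearest to a member were sought among 9818 genes with a mean of at least 10 CPM, by the root mean square difference of centred log2 CPM. Nearest to Scn4b were Hrh3, a histamine receptor (0.05), Slc41a3, a magnesium transporter (0.06), and Atox1, a copper chaperone (0.06). Nearest to Scn8a were Ptrhd1, Prrc2b and Sez6l (0.02 each), and nearest to Scn2b were Laptm5 (0.02), Slc35b4 and Slc39a7 (0.03 each). Among the other sodium channel genes and factors, Scn1a stood closest to Scn2b, at rank 55 of the 9818 genes (0.05), while Scn4b was at rank 5191 (0.19). These distances describe the 6 libraries and carry no test.

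Reads on the opposite strand were few for 8 of the 9 genes, at most 1.28% of the reads of both strands in any library. Scn3b was the exception, with 2.89%, 4.10% and 5.08% in WT and 2.28%, 1.36% and 1.26% in KO. Every WT library was above every KO library for Scn3b, on 12 to 41 opposite-strand reads per library. The same order held for Fgf14, and the reverse for Scn1a. The next gene, Gramd1b, lies on the opposite strand and ends 1.615 kb after Scn3b. Scn9a (Nav1.7), the neighbour of Scn1a, had 48.3% to 65.4% of its reads on the opposite strand, again with every WT value above KO. The level of Scn9a itself did not pass (log2 −0.07, adjusted p = 0.806 in edgeR).

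Scn1a, Scn8a, Scn2b, Scn4b and Fgf13 had positive log2 fold changes under all 15 alternative fits, and each kept its call with DESeq2, limma-voom, other size factors, no filter, counts of both strands, without Rn45s and with the GC content and length trend removed. The fits that ended calls were those with the read assignment ratio, with a replicate block (Scn1a, Scn8a and Fgf13) or without 1 of 4 libraries (WT replicate 2 and each KO replicate). All 5 passed without WT replicate 3, where Rn45s took most gene reads, at log2 fold changes of 0.44 for Scn4b, 0.28 for Scn8a and 0.25 for Scn1a, Scn2b and Fgf13. With the read assignment ratio in the fit, Scn8a stayed at 0.27 (adjusted p = 0.0857 in edgeR) while Scn1a was at 0.17, Scn2b at 0.16 and Fgf13 at 0.15 (adjusted p = 0.265, 0.293 and 0.414). This ratio was −0.71 to 1.56 in WT and −1.95 to −1.89 in KO, so read assignment and genotype cannot be told apart from it except through WT replicate 3.

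**Figure D5:**
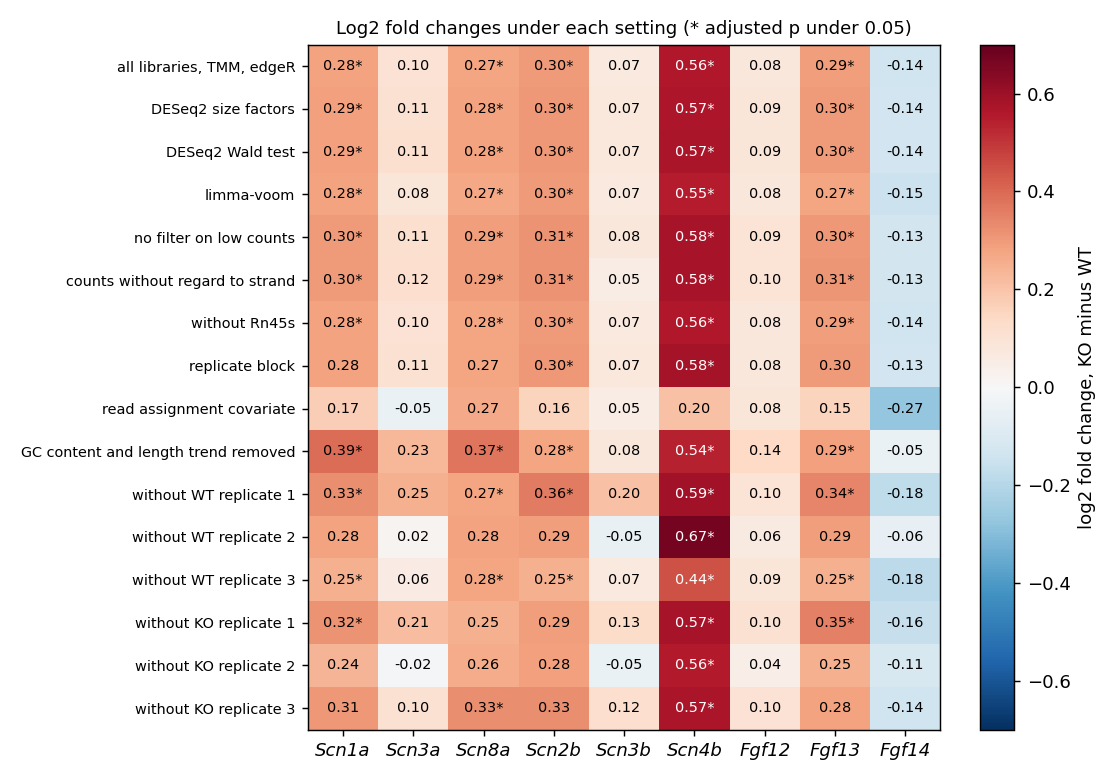
Log2 fold changes of the 9 genes (columns) under the reported fit and 15 alternatives (rows), coloured from −0.7 to 0.7, with a star where the adjusted p is under 0.05. Scn4b has a star in every row but that of the read assignment ratio, and Fgf14 is negative in every row.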

How the data were processed

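Per gene and library, the authors deposited raw counts, made with Trimmomatic and STAR on mm10 per the submitters' processing notes; the sources used here give no versions, annotation or strand setting. Counts came from the strand column with more reads, which held 47.6 to 128 times the reads of the other, and the 4 summary lines were left out. Reads with several places in the genome stand in a summary line, so reads that similar alpha subunit genes share are uncertain.

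Counts were filtered with filterByExpr (15519 genes kept, 8892 removed), scaled by TMM and tested with edgeR 4.0.16 (R 4.3.3), glmQLFit with robust estimation. Standard errors are |log2 fold change|/√F, and intervals are at 95%. CPM use TMM-scaled library sizes. Ratios were tested by exact permutation. Alternatives used DESeq2 1.42.0 and limma 3.58.1. The test was checked on counts simulated without library differences in Rn45s share or read assignment, so the check does not cover these. Exon lengths came from the GENCODE annotation of GRCm38, matched by symbol for 23376 genes and by synonym for 651.

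The members and lists were chosen with earlier results of these data known. The text names all members, list genes past the threshold, adjacent genes and nearest profiles; Scn2a1, Unc79, Ank3 and other list genes that did not pass were named after their values were seen. The initial segment list also holds Iqcb1, a gene of cilia. Some genes of the lists are counted but not reported here by name.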

Additional observations from a re-analysis of the deposited data

How the results depend on the processing

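No call of the 9 genes changed with the normalization, the test, the filter, the strand column or Rn45s, and 0 of them fell in any fit. With the read assignment ratio, 0 of the 9 rose, 561 of all genes rose and 861 fell, 0 of the wider family rose and 1 fell, 1 initial segment gene rose and 1 fell, and 0 sodium handling genes rose; Scn3a was at −0.0466. With the replicate block the numbers were 2 of the 9 higher (Scn2b and Scn4b), 252 higher and 821 lower of all genes, and 1 initial segment gene, 0 regulators and 1 sodium handling gene higher; the replicate numbers showed no pairing (correlations of −0.18, −0.14 and −0.10). Other counts that moved were 2 family genes higher with counts of both strands or the GC content and length trend removed, 1 lower with limma-voom, 9 initial segment genes higher and 1 lower with the trend removed, and 3 regulators higher with DESeq2, limma-voom or no filter and 2 with both strands or the trend removed.

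When 1 library was left out, 1 to 5 of the 9 rose and 0 fell, 245 to 1623 of all genes rose and 796 to 2096 fell, 1 to 2 family genes rose and 0 to 1 fell, 0 to 6 initial segment genes rose and 0 to 2 fell, 0 to 4 regulators rose and 0 to 1 fell, and 1 to 4 sodium handling genes rose and 0 to 1 fell. Scn3a ranged from −0.0153 to 0.249, Scn3b from −0.0511 to 0.205, and the Scn8a to Scn1a ratio difference from −0.0693 to 0.0278. The cause of these moves was not tested. Depth was lowest in WT replicate 3, where Scn3a had 231 and Scn3b 224 reads.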
